A study of Rattus norvegicus with 2 samples.

Results

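The Sox genes code for transcription factors that share an HMG box, a domain that binds the minor groove of DNA and bends it. The 10 genes chosen for description were Sox1, Sox2, Sox3, Sox4, Sox5, Sox6, Sox8, Sox9, Sox10 and Sox11, grouped by the family's usual subgroups B1, C, D and E. Of these, 9 had a probe set assigned to that gene alone, among 22093 such genes, and Sox1 was not analysed here. All 9 had a single probe set. RNA of 2 samples of rat neural stem cells (NSCs) was measured, each on its own whole-transcript array. Whole brains of SD rats at embryonic day 13.5 were the source of the NSCs, which had first been expanded as neurospheres for 10 days. In the co-cultured group the spheres were then placed for 14 days on passage 3 ectodermal mesenchymal stem cells (EMSCs) from rats transgenic for green fluorescent protein, in medium with 10% fetal bovine serum, and the NSCs were recovered by fluorescence-activated sorting. In the mono-cultured group, the control, NSCs were kept without EMSCs for the same 14 days. The labels do not say whether this group had the serum medium or was sorted, how many embryos were pooled, or which gate was used, so co-culture, serum and sorting cannot be told apart.

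In the developing nervous system the B1 factors keep cells in the progenitor state, and the C factors act later, when neurons differentiate. The E factors act in glia: Sox9 in neural stem cells, in the switch to gliogenesis and in astrocytes, Sox10 in oligodendrocytes and in neural crest and its Schwann cells, and Sox8 partly in parallel with both. The D factors Sox5 and Sox6 lack a known activation domain of their own and modify the action of the E factors, together with them in cartilage and against them in oligodendrocyte precursors, as described in mice.

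Sox9 was the only member with a difference of 2-fold or more, and it was lower in co-culture. The other 8 members lay within 2-fold, among them the progenitor factor Sox2 and the oligodendrocyte factor Sox10. The E subgroup thus held both ends of the range, from -1.66 for Sox9 to 0.20 for Sox10 on the log2 scale. Differences are given in log2 RMA units, with the mono-cultured level subtracted from the co-cultured one, so that 1 is a 2-fold difference. Each group has 1 array, so the values carry no replicate error and the groups could not be tested against each other.

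The array sets the background for these counts. The 11849 genes whose higher level reached 4.97, the median over all genes and both arrays, were kept, among them 8 of the 9 members. A gene that passed on 1 array alone is higher on that array through this selection, also in the lists below. Of the kept genes, 10.6% differed by 2-fold or more, 5.04% upward and 5.54% downward, so 1 member of 8 is near that share. Across kept genes the differences had a median of -0.06 and an SD of 0.79. Of the values of 1153 negative control probe sets, 95% lay below 6.64, called the negative control level here. The differences of 399 positive control probe sets had an SD of 0.44, and their central 95% ran from -1.15 to 0.61. The spread of the controls lies within this pair of arrays and does not cover variation between cultures.

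RefSeq upstream windows were matched by symbol for 4 of the members. Those of Sox2, Sox3 and Sox11, the matched B1 and C members whose levels stayed within 2-fold, are shown to set their promoters side by side. Each line holds the 250 bases before the annotated start, from RefSeq on build GRCr8, read 5′ to 3′ on the strand of the gene. Capitals mark ATTGG, the reverse complement of the CCAAT box that many promoters carry. The windows lie at chr2:119464881-119465130 on the plus strand (Sox2), chrX:144346972-144347221 on the minus strand (Sox3) and chr6:49738795-49739044 on the minus strand (Sox11).
Sox2: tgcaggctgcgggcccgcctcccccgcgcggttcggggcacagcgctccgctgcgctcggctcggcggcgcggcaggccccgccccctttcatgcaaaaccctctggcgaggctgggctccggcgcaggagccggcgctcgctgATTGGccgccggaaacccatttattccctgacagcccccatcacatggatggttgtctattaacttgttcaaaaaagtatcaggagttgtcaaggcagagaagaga
Sox3: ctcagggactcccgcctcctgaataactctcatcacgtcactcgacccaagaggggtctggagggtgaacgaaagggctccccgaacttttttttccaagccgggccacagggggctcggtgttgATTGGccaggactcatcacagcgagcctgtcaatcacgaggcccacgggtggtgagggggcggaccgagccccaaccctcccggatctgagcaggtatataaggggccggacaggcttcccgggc
Sox11: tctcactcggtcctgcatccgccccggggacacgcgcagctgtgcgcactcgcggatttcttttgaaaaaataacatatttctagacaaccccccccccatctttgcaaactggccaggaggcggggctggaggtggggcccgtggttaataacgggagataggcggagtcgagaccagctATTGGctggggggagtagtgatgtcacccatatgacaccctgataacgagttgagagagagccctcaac
CCAAT was searched on both strands, and it was chosen after the sequences were seen. It occurred 1 time in each of the 4 windows, always as ATTGG, with its first base 106 bases before the start in Sox2, 125 in Sox3, 69 in Sox11 and 188 in Sox6. Of 33469 rat windows of this length, 34.0% held it. ACAAAG or ACAATG, short cores of the DNA sequence that Sox proteins bind, were found on either strand in 25.3% of all windows. Among the 4 members they occurred in that of Sox6 alone, 3 times, the nearest 13 bases before the start. The GC content was 64.4% for Sox2, 62.4% for Sox3, 56.8% for Sox11 and 42.8% for Sox6, against a median of 51.2% over all windows. These matches are descriptions of sequence. Binding was not measured.

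**Figure D1:**
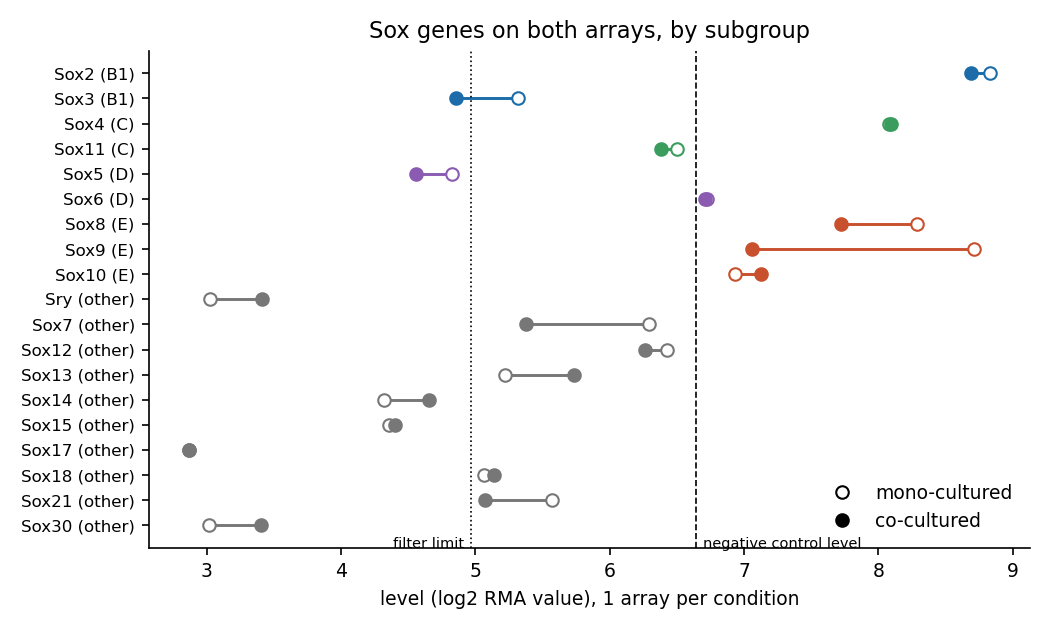
Level of each Sox gene on the mono-cultured (open) and the co-cultured array (filled), in log2 RMA units, coloured by subgroup. Vertical lines mark the filter limit of 4.97 and the negative control level of 6.64. Sox9 shows the widest gap, from 8.71 to 7.06, and the 10 other Sox genes, in grey, stay left of the negative control level.

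Both measured B1 members had a slightly lower value in co-culture. The difference of Sox2 was no larger than the median difference of the positive controls, -0.16. Sox2, which maintains neural stem cells, measured 8.69 in co-culture against 8.83 in mono-culture, a difference of -0.14. Both levels lie above the negative control level, and 71.2% of the kept genes had a larger difference in either direction. Sox3, which acts redundantly with Sox2 in neural progenitors, measured 4.86 in co-culture against 5.32 in mono-culture, a difference of -0.46. It was below the negative control level on both arrays, so its difference was measured in the range of background. Sox3 passed the filter through the mono-cultured array alone. Under the 3 other scalings of the arrays the difference of Sox2 shrank to -0.04 at the smallest and that of Sox3 to -0.44, both keeping their sign. With dim levels raised to 4.97 the difference of Sox3 was -0.35.

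Genes that work with B1 factors or mark the same cells were described as a list of 20 genes, 17 of them kept. A 2-fold lower level in co-culture was reached by 3 of them and a 2-fold higher one by 0, and 14 lay between. The median difference was -0.35 against -0.06 for all kept genes. By sign 11 were lower and 5 higher, against 6614 lower and 5013 higher among all kept genes. Those higher in co-culture included Zic1 (0.90), Nes (0.80) and Zic2 (0.75). Fabp7, a fatty acid binding protein of radial glia, measured 7.81 in co-culture against 9.76 in mono-culture. The forebrain homeobox gene Lhx2 differed by -1.89 and the growth factor receptor gene Egfr by -1.19, while the RNA-binding protein gene Msi1 fell just short of 2-fold, at -0.997. The POU factor gene Pou3f2, a partner of B1 proteins on neural enhancers, was 5.65 against 6.16, a difference of -0.51. Pax6, a further partner, was below 4.97 on both arrays, at 4.01 and 4.53. Sox2 was thus level to within 0.14 between arrays on which Fabp7 differed by -1.95.

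The C members differed least as a pair. Sox4, which promotes neuronal differentiation and survival of precursors, measured 8.10 in co-culture against 8.08 in mono-culture, a difference of 0.020. Its relative Sox11, a factor of immature neurons, measured 6.38 in co-culture against 6.50 in mono-culture, a difference of -0.12, with both levels just below the negative control level. Of the positive controls, 96.2% had a larger difference than Sox4 in either direction and 76.2% a larger one than Sox11. Of 11 kept genes of neuronal differentiation, 2 were at least 2-fold lower and 0 higher. The shares over all kept genes were 5.54% and 5.04%. The list median was -0.04, and between -0.02 and 0.02 under other scalings. The microtubule genes Dcx and Stmn2, which mark young neurons, differed by -1.59 and -1.22. Elavl3, an RNA-binding protein gene of neurons, differed by 0.80, the neuronal tubulin gene Tubb3 by 0.37 and Map2 by -0.64. Dcx was below the negative control level on both arrays, at 5.02 and 6.61, and Stmn2 above it on both, at 7.08 and 8.30.

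The D members were close to equal on the arrays. Sox6 measured 6.71 in co-culture against 6.72 in mono-culture, a difference of -0.013 that turned to 0.05 under quantile normalization and under a loess correction, so no direction is given for it. Sox5 measured 4.56 in co-culture against 4.82 in mono-culture. It missed the filter on both arrays, and its difference of -0.27 is that of a dim probe set. Sox6 was just above the negative control level on both arrays and Sox5 well below it.

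**Figure D2:**
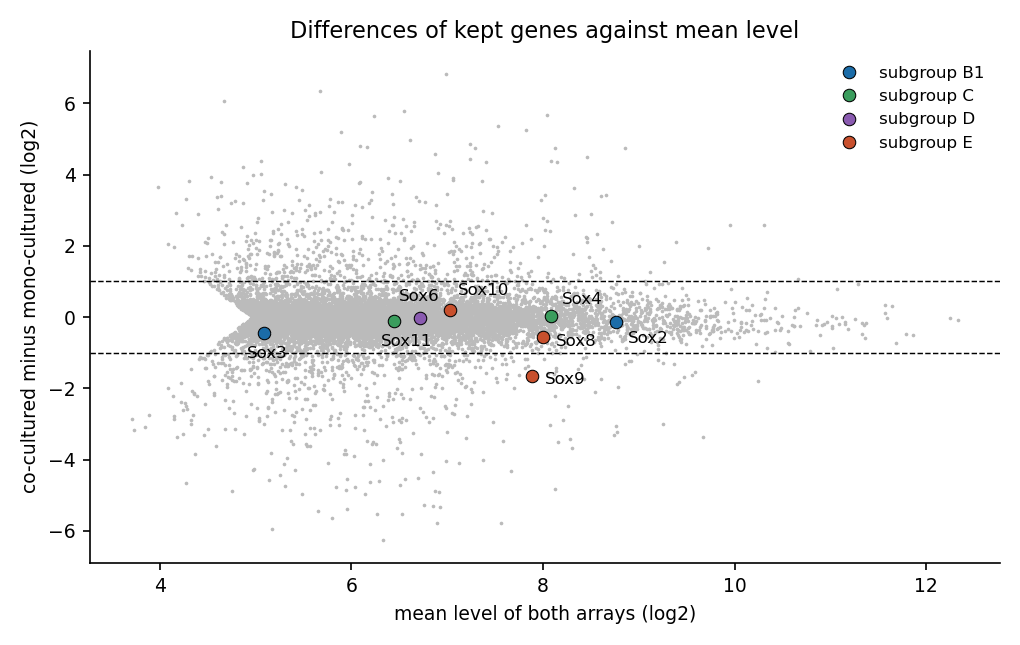
Difference between the arrays (log2, co-cultured minus mono-cultured) against the mean level of both arrays (log2) for the 11849 kept genes, with the 8 kept Sox members coloured by subgroup and dashed lines at 2-fold. Sox9, at -1.66, lies below the lower line and the other 7 between the lines.

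The E members, the glial group, differed most among themselves. Sox9 measured 7.06 in co-culture against 8.71 in mono-culture. This is a difference of -1.66, or a level 3.15-fold lower in co-culture, with both levels above the negative control level. Of the kept genes, 2.50% had a lower difference than Sox9, and 0.501% of the positive controls had a larger one in either direction. In bulk RNA, fewer cells that express Sox9 and less Sox9 RNA per cell cannot be told apart. The difference of Sox9 was -1.64 with each array centred on its median, -1.58 under quantile normalization and -1.60 under loess. The other alternatives repeat -1.66, as they cannot alter a bright gene with 1 probe set. This difference passes 2-fold but not 4-fold.

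Sox8 measured 7.72 in co-culture against 8.29 in mono-culture, a difference of -0.56 that is short of 2-fold. Sox10 measured 7.13 in co-culture against 6.93 in mono-culture, a difference of 0.20. All 3 genes were above the negative control level on both arrays, so the contrast among them does not rest on background values. The differences of Sox9 and Sox10 lay 1.86 apart, those of Sox8 and Sox9 1.09 apart and those of Sox8 and Sox10 0.76 apart. Within the other subgroups the pairs lay 0.32 (B1), 0.14 (C) and 0.25 (D) apart, with 2 genes measured in each. Among 475 kept genes with several bright probe sets, the differences of probe sets varied around their gene's mean with a pooled SD of 0.26. The gaps of Sox9 to Sox8 and Sox10 are larger than this SD and than the positive control SD of 0.44. Both SDs are those of single differences, and a gap between 2 genes varies more. Neither says anything about the spread between cultures. Without Sox9 the 7 other kept members ranged from -0.56 to 0.20, with a median of -0.12.

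Genes of glia and neural crest that depend on E factors, or are expressed with them, were described as a list of 32, of which 27 were measured and 23 kept. A 2-fold higher level in co-culture was reached by 7 of the 23 and a 2-fold lower one by 0, and 16 lay between. The shares over all kept genes were 5.04% and 5.54%. The list median was 0.30. The largest differences were in genes of Schwann cells and neural crest: the neurotrophin receptor gene Ngfr (9.58 against 5.24), the cadherin gene Cdh19 (3.37), the myelin regulator Egr2 (1.99) and the crest factor Foxd3 (1.57). Cdh19 and Foxd3 passed the filter through the co-cultured array alone. Erbb3, the neuregulin receptor gene that Sox10 controls in crest cells, differed by 1.47. Mbp, the myelin basic protein gene and a target of Sox10, was 6.93 against 6.95. Sox10, at 0.20, was thus near Mbp and well below the crest genes named here in its difference. Of the 23 kept genes 14 were higher, among them Gjc3 (1.44) and Mog (0.80). The other 9 were lower, among them S100b (-0.70), Cspg4 (-0.56), Mitf (-0.48), Olig1 (-0.44), Nkx2-2 (-0.37) and Olig2 (-0.32). Among all kept genes 5013 were higher and 6614 lower.

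Cartilage matrix genes, which Sox9 drives together with Sox5 and Sox6, lay on the other side of zero from Sox9. Of 15 such genes 8 were kept, and all 8 were higher in co-culture, 1 of them by 2-fold or more, with a median of 0.31. Col9a1 (4.98 against 4.71) and Comp (5.11 against 4.68) passed the filter through the co-cultured array alone, so their sign was fixed by it. Over all 15 genes, kept or not, the median was 0.30. Of all kept genes 5.04% were at least 2-fold higher. Of all 11849 kept genes, 5013 were higher in co-culture. Under other scalings, 8 of 8 or 7 of 7 kept genes were higher. The fibrillar collagen gene Col11a1 was 7.45 against 5.99, and the cartilage collagen gene Col2a1 was 5.98 against 5.32. Comp differed by 0.43 and Col9a2 by 0.31. Acan, the cartilage proteoglycan gene, was below 4.97 on both arrays, at 4.89 and 4.09. Of the 8 kept genes, 1 exceeded the negative control level in co-culture and 0 did in mono-culture, so most of this list was dim.

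**Figure D3:**
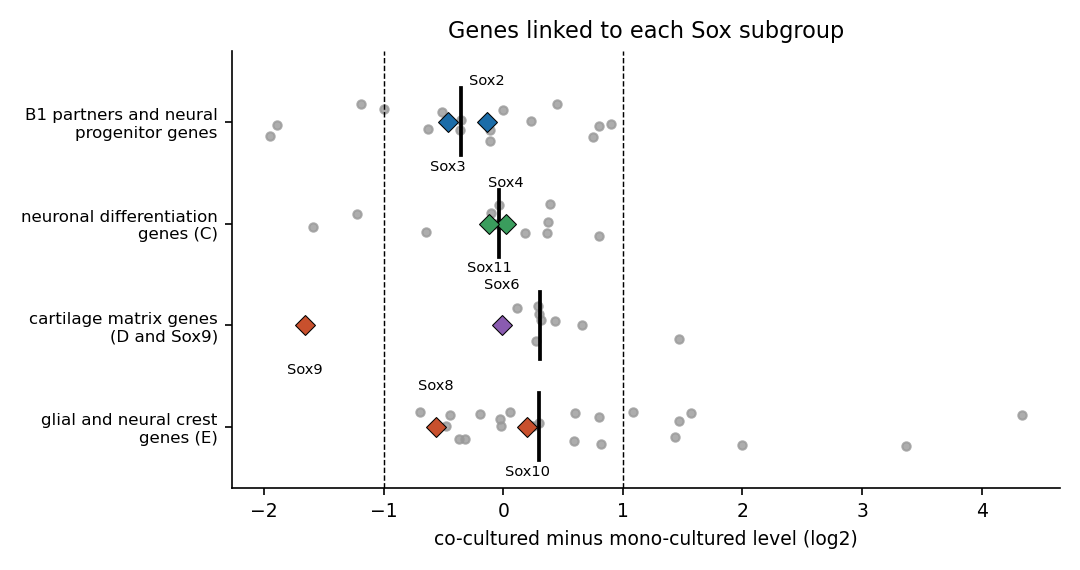
Differences (log2, co-cultured minus mono-cultured) of kept genes linked to each subgroup, as grey points, with the list median as a black bar, the Sox members as coloured diamonds and dashed lines at 2-fold. Sox9, at -1.66, lies left of all 8 cartilage matrix genes, and Sox2, Sox3, Sox4 and Sox11 lie between -0.46 and 0.02.

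Markers of several cell types also differed between the arrays, and their values are set beside those of the E members. Of 11 kept astrocyte markers other than Sox9, 7 had a level lower by 2-fold or more in co-culture and 1 a higher one, with a median of -1.96. The higher one was Gja1, at 7.15 against 6.11. Aldh1l1 (0.01), Gjb6 (0.18) and Slc7a10 (0.00) missed the filter and differed little. On the mono-cultured array 7 of the 11 kept markers exceeded the negative control level, and on the co-cultured array 3 did. Gfap, the astrocyte filament gene, was 6.00 against 8.96, Mlc1 differed by -3.26, Acsbg1 by -2.87 and Ntsr2 by -2.68, and the water channel gene Aqp4 by -1.43. Aqp4 was below the negative control level on both arrays, and Gfap, Mlc1, Acsbg1 and Ntsr2 were below it in co-culture, so the sizes of these differences depend on the background. Acsbg1 and Ntsr2 passed the filter through the mono-cultured array alone. Sox9 had a difference of the same sign as 10 of these 11 genes.

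Oligodendrocyte markers stood beside Sox10. Of 13 kept markers other than Sox10, 11 lay within 2-fold, 1 was higher (Ermn, 1.46) and 1 lower (Cldn11, -1.13), with a median of 0.42. By sign 9 were higher, among them Opalin (0.97) and Mal (0.82), and 4 lower, among them Olig1 (-0.44) and Olig2 (-0.32). The difference of Sox10, 0.20, lies between those of Cldn11 and Ermn. So do those of the other Sox members except Sox9, so this does not set Sox10 apart. Schwann cell and neural crest markers other than Sox10 were at least 2-fold higher in 9 of 11 kept cases, with a median of 1.57, led by Snai2 (4.81), Ngfr (4.34), Cdh19 and L1cam (3.14). Snai2 and Twist1 are on the list of mesenchymal markers too. On the mono-cultured array 1 of these 11 exceeded the negative control level, against 6 in co-culture. Sox10, at 0.20, was short of the 9 that passed 2-fold. The other 2 kept markers were Twist1 (0.27), near Sox10, and Pmp22 (-0.34), which was lower.

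Among the marker lists, those of mesenchymal and myeloid cells differed most. Of 17 mesenchymal markers, the class of the feeder layer, 14 passed 2-fold upward and 2 downward (median 2.81), with 14 above the negative control level in co-culture against 5 in mono-culture, and Col1a1 was 11.23 against 6.48. Lum differed by 5.20, Snai2, which is also on the Schwann cell and crest list, by 4.81, and Acta2 by 4.76. Lum, Snai2 and Acta2 passed the filter through the co-cultured array alone. The 2 mesenchymal markers that were lower in co-culture were Eng, at 6.24 against 8.26, and Nt5e, at 5.73 against 7.73. Of 15 microglia and macrophage markers, 14 were at least 2-fold lower and 0 higher (median -4.58), with 1 above the negative control level in co-culture against 13 in mono-culture, and C1qb was 4.66 against 10.45. Csf1r, Adgre1 and Laptm5 differed by -5.77, -5.53 and -5.32. They and C1qb passed the filter through the mono-cultured array alone. Of 7 kept neuron markers 2 were at least 2-fold lower, Dcx and Stmn2, and 0 higher, with a median of -0.48, and the neurofilament gene Nefh differed by 0.66. The part of these cells in the differences of Sox8, Sox9 and Sox10 was not tested.

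**Figure D4:**
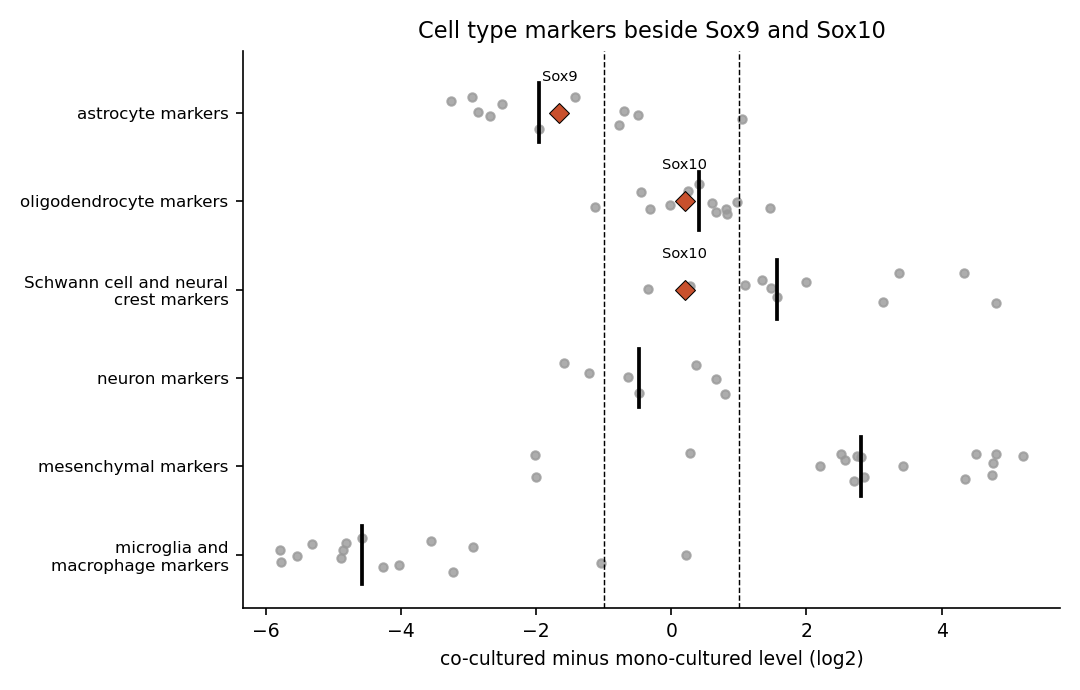
Differences (log2, co-cultured minus mono-cultured) of kept markers of 6 cell types, as grey points with the median as a black bar, beside Sox9 and Sox10 as diamonds, and dashed lines at 2-fold. Sox9, at -1.66, lies among the astrocyte markers (median -1.96), and Sox10, at 0.20, among the oligodendrocyte markers (median 0.42) and left of most Schwann cell and crest markers (median 1.57).

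The remaining Sox genes gave 0 differences of 2-fold. All 10 that were looked up were measured, 5 were kept, and all 10 were below the negative control level on both arrays. Sox7, an F subgroup gene of endothelium, came nearest, at 5.38 in co-culture against 6.29 in mono-culture, a difference of -0.91. Its F relative Sox18 was 5.14 against 5.07, and Sox17 had the same value, 2.87, on both arrays. Sox13 of the D subgroup differed by 0.52, with levels of 5.73 and 5.22. Sox21, a B2 factor that opposes the B1 factors, differed by -0.50, with levels of 5.07 and 5.57, and its relative Sox14 was 4.65 against 4.32. Sox12, the third C gene, was 6.26 against 6.43, a difference of -0.17. Sox15 (0.04), Sox30 (0.39) and the Y-linked gene Sry (0.39, the mean of 2 probe sets) were dim and missed the filter.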

How the data were processed

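RNA from 1 co-cultured and 1 mono-cultured sample was biotin-labelled with a whole-transcript kit, per the labels' protocols. The authors deposited log2 levels for each transcript cluster. RMA is named in the submitters' processing notes; it removes background, quantile-normalizes the arrays and combines the probes of a set. Its software, its version and the genome build were not given in the sources used here. Values from 0.33 to 12.74 fit the log2 scale. Quantile normalization hides a shift of all genes, and RMA compresses low levels. The number of arrays limits the precision.

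From the table of 70580 rows, probe sets with 1 symbol in the platform annotation (23446) were averaged per gene, and 505 with several symbols were left out. Kept genes reached the median gene level on at least 1 array. No p-value was computed, as there is 1 array per group, and differences of 2-fold were counted. The Sox members and the gene lists were chosen with earlier results of these data known. Within a list the text names the 4 kept members with the largest absolute difference and a set of defining markers. For some lists it adds members that differed little or the other way. The steps ran in Python 3.11.15 with numpy 2.4.6, pandas 2.3.3 and statsmodels 0.14.6, and were tested on simulated data. Alternatives were median centring, quantile normalization (limma 3.58.1 in R 4.3.3), loess (span 0.4), other filters, probe set rules, thresholds of 1.5-fold and 4-fold, and dim levels raised to the limit.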

Additional observations from a re-analysis of the deposited data

How the results depend on the processing

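The single Sox gene differences moved by less than 0.26, the SD of probe sets around their gene's mean, in all 82 values computed under the alternatives. Many of these values could not move. Filters and probe set rules repeat the reported difference of a gene with 1 probe set. Only the other scalings, and the raised dim levels for Sox3, could change it. The median over kept members, -0.13, ranged from -0.14 to -0.04. Sox9 was the member past the threshold under each of the 12 alternatives except the 4-fold threshold, where 0 members passed. The background count of 1254 genes moved by over 1.5 times under 4 alternatives. It was 729 (368 higher, 361 lower) where the higher level had to reach the negative control level, 616 (313 higher, 303 lower) where both levels had to reach the limit, 2442 (1095 higher, 1347 lower) at 1.5-fold and 439 (213 higher, 226 lower) at 4-fold. The last pair differ by the threshold itself. Requiring both levels to reach the limit leaves out genes that are dim on 1 array, and the share past 2-fold was then 6.01% of 10245 genes. No paired analysis was possible because each group has 1 array. Signal near background limits Sox3, Sox5, Sox11 and the cartilage matrix list.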

Other observations

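Exactly equal values on both arrays, as seen for Sox17, occurred in 1414 of the 22093 genes (6.40%) and in 222 of the 11849 kept genes (1.87%), up to a level of 8.72. The cause was not tested.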
